A study of Mus musculus with 8 samples.

Results

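Elastic fibre and microfibril genes were followed in primary chondrocytes of mouse articular cartilage, cultured with IL-1β, a cytokine of joint inflammation, or with vehicle. The 10 genes were found by their symbols among the 54658 gene symbols of the count table, and were *Eln*, *Fbn1*, *Fbn2*, *Emilin1*, *Mfap2*, *Mfap4*, *Mfap5*, *Fbln1*, *Fbln2* and *Fbln5*. All 10 had a row, and 7 of them passed the filter on low counts, a CPM (the reads of a gene scaled by library size) above 1 in at least 4 samples, which 14404 genes passed in all. RNA-Seq covered 4 samples with IL-1β (1 ng/mL, 24 h) and 4 with vehicle for the same time. The cells came from femoral head cartilage of 3-week-old wild-type mice, were released with collagenase and were seeded in wells in medium with serum. Nothing in the labels says whether the 4 samples of a group came from separate animals or cultures, so p-values measure only the spread between these samples. In bulk RNA, fewer cells of a type and less RNA per cell cannot be told apart.

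Elastic fibres consist of a core of crosslinked elastin and a mantle of microfibrils, which are built from fibrillins and carry microfibril-associated glycoproteins (MAGPs). Fibulins and EMILINs lie between the core and the microfibrils, and lysyl oxidases crosslink the elastin. Microfibrils also occur without elastin, and they bind latent TGF-β binding proteins, which hold TGF-β in the matrix. In cartilage, microfibrils surround the chondrocytes, while elastin is best known from arteries, lung, skin and elastic cartilage.

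Total counts per sample were 10992355 to 17456063, and 3 reads, taken as the smallest number that could be shown, correspond to 0.173 to 0.270 CPM. The chondrocyte label was compared with 10 markers, all of which passed the filter. Their summed level was 16198 to 16821 CPM with vehicle and 4234 to 4646 CPM with IL-1β. The sum, mostly *Col2a1*, was thus high in every sample and lower in all IL-1β samples. All 10 were called lower, and the least abundant, *Matn3*, had 8.47 ± 0.663 CPM (SD, n = 4) with vehicle and 2.62 ± 0.327 CPM with IL-1β. Of the 7 endothelial markers none passed the filter, and their sum was at most 1.78 CPM. Of the 7 leukocyte markers 1 passed, *Cd68*, which rose by 0.67 on the log2 scale (adjusted p = 8.49e-07 from edgeR), while *Ptprc*, the defining one, stayed at or under 0.433 CPM. The leukocyte sum was 11.3 to 12.0 CPM with vehicle and 14.6 to 18.3 CPM with IL-1β, ranges that did not overlap. That sum was mostly *Cd68*. *Laptm5*, which did not pass the filter, went the other way, at 1.17 ± 0.265 CPM (SD, n = 4) with vehicle and 0.422 ± 0.162 CPM with IL-1β. Of the 7 smooth muscle and pericyte markers 2 passed, *Acta2* and *Smtn*, while *Myh11*, the defining one, stayed at or under 0.499 CPM. *Acta2* and *Smtn* were both called lower, by -2.03 and -0.21 on the log2 scale. The sum of that list was 50.1 to 53.7 CPM with vehicle and 34.7 to 39.2 CPM with IL-1β. The 9 markers of fibroblasts, perichondrium and tendon summed to 205 to 217 CPM with vehicle and 210.1 to 228 CPM with IL-1β, ranges that overlap, but 3 of the 5 that passed the filter were called. *Pdgfra* and *Cd34* rose by 0.58 and 0.76 on the log2 scale, and *Col3a1* changed by -0.34. Of the 6 osteoblast markers 4 passed and fell, with sums of 126 to 136 CPM with vehicle and 50.3 to 58.5 CPM with IL-1β. Of the 3 superficial zone markers 2 rose, and the sum went from 881 to 936 CPM with vehicle to 2015 to 2131 CPM with IL-1β, mostly *Prg4*, which encodes lubricin. The part of these shifts in the results below was not tested.

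With vehicle, the elastic fibre transcripts consisted mainly of *Emilin1*, followed by *Fbln5*, *Fbn1* and *Fbln2*, while *Eln* itself was close to the limit of what could be shown. Levels of different genes are compared as FPKM, the TMM-scaled CPM per kilobase of the gene length listed in the deposited table. *Emilin1*, whose product is a glycoprotein at the interface of elastin and microfibrils, had 73.3 ± 1.94 FPKM (SD, n = 4), more than 96.6% of the genes tested. It made up 69.8 ± 0.305% (SD, n = 4) of the summed FPKM of the 10 genes. *Fbln5*, which encodes an integrin-binding fibulin needed for elastic fibre assembly, had 12.8 ± 0.405 FPKM. *Fbn1*, which encodes fibrillin-1, the main structural protein of microfibrils, had 12.7 ± 0.254 FPKM, and the ranges of *Fbln5* and *Fbn1* overlapped, so that these neighbours in the order did not differ beyond their spread. *Fbln2*, which encodes a fibulin that binds elastin and fibrillin, had 4.14 ± 0.0653 FPKM.

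Below these came *Mfap2*, which encodes MAGP-1, with 0.847 ± 0.315 FPKM, *Fbn2*, which encodes the fibrillin best known from development, with 0.676 ± 0.0732 FPKM, and *Fbln1*, which encodes fibulin-1, found in elastic fibres and basement membranes, with 0.313 ± 0.114 FPKM. The ranges of *Mfap2* and *Fbn2* overlapped. At the bottom, *Eln* (0.0618 ± 0.0221 FPKM), *Mfap5* (0.0471 ± 0.0341 FPKM) and *Mfap4* (0.0451 ± 0.0576 FPKM) rested on at most 12 reads in any vehicle sample. The range of *Mfap5* overlapped with those of *Eln* and *Mfap4*, while *Eln* lay below *Fbln1* in all vehicle samples. The vehicle order by FPKM was the same with the length of the longest coding transcript in place of the listed length, but the values of *Eln* and *Mfap5* were then 0.130 and 0.112 FPKM. Without vehicle replicate 2, *Mfap4* had 0.0200 FPKM.

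**Figure D1:**
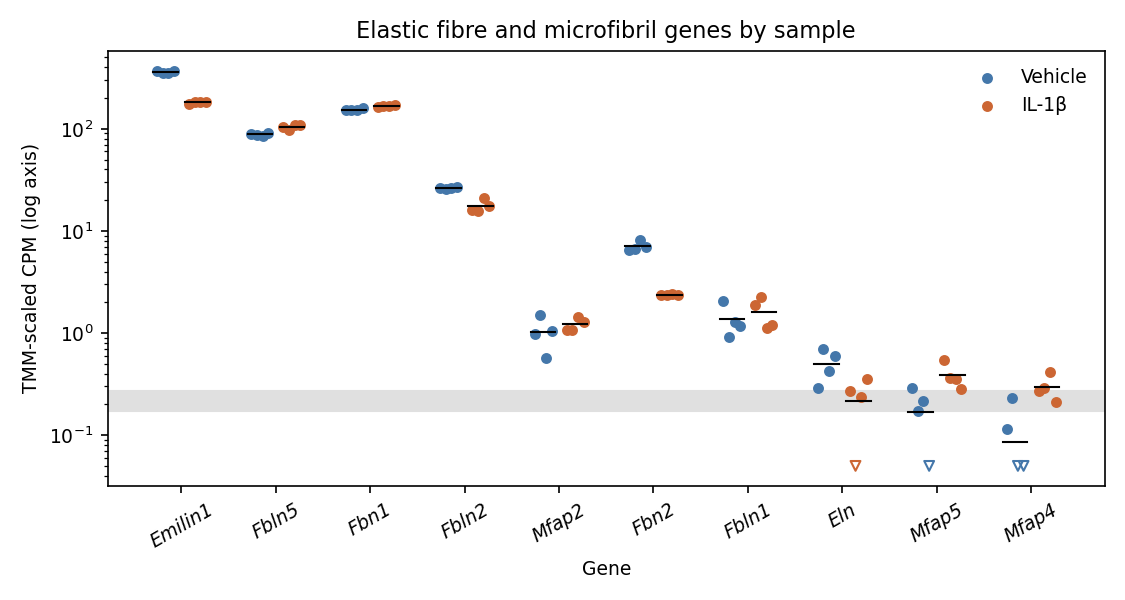
TMM-scaled CPM (log axis) of the 10 genes in each of the 4 vehicle samples (blue) and 4 IL-1β samples (orange), ordered by vehicle FPKM. Black bars are means, open triangles at the bottom mark samples with 0 reads and the grey band is the CPM of 3 reads in the 8 samples. *Emilin1*, *Fbn2* and *Fbln2* are lower in all IL-1β samples, and *Eln*, *Mfap5* and *Mfap4* lie near the band in both groups.

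The promoters of the 4 most abundant genes are shown because these genes moved in both directions after IL-1β, *Emilin1* and *Fbln2* down and *Fbn1* and *Fbln5* up. RefSeq promoters (GRCm38.p6, 250 bases before to 50 bases after a start site) matched 6 of the 10 genes, with 9 promoters. They were searched on both strands for the κB consensus, the AP-1 site TGANTCA, the GC box GGGCGG and the TATA motif TATAAA, chosen with the members' changes known. The capitals mark matches, which here are all GC boxes, and each sequence reads 5′ to 3′ on the strand of the gene. The *Emilin1* window is chr5:30913536-30913835 (plus strand), that of *Fbln2* chr6:91212514-91212813 (plus strand), that of *Fbn1* chr2:125506389-125506688 (minus strand) and that of *Fbln5*, the second of its windows, chr12:101819070-101819369 (minus strand).
Emilin1: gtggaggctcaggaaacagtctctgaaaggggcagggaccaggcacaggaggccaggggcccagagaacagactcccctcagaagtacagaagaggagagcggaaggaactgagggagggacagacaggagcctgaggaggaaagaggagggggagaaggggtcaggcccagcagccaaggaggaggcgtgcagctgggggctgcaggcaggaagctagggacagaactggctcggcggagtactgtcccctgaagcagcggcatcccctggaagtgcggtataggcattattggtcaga
Fbln2: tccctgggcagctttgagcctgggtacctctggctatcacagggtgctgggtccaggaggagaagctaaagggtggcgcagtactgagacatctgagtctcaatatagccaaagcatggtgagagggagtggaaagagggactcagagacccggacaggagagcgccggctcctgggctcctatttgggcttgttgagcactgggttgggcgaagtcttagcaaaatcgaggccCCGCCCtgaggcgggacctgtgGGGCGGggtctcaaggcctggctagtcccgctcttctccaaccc
Fbn1: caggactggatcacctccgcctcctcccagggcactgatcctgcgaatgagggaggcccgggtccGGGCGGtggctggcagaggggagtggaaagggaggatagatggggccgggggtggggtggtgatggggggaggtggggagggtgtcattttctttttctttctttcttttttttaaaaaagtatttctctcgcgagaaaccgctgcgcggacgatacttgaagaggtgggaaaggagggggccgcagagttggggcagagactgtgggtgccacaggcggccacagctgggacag
Fbln5: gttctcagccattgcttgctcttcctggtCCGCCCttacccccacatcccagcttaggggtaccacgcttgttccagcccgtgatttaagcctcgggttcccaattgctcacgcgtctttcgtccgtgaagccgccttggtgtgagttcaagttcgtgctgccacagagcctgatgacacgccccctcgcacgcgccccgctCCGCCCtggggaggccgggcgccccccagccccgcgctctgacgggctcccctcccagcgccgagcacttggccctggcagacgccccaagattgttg

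None of the 4 motifs was in the *Emilin1* window, and *Fbn1* had 1 GC box while *Fbln2* and the *Fbln5* window shown had 2 each. The GC box is in 35.7% of the 32851 promoters in the RefSeq table. The κB consensus, found in 8.46% of all promoters, was in none of the windows shown, and among the other members it matched 1 of the *Mfap2* windows and both overlapping windows of *Fbln1*, genes that did not pass the test between the treatments. The AP-1 site (7.81% of all promoters) and the TATA motif (13.6%) matched none of the 9 windows. The GC content was 61.7% for *Emilin1*, 60.3% for *Fbln2*, 60.3% for *Fbn1* and 65.7% for the *Fbln5* window shown, against a median of 52.7% over all promoters. The first *Fbln5* window, which is not shown, had a GC content of 48.7% and no match to any of the 4 motifs.

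After IL-1β, 3 of the 7 genes tested fell (*Fbn2*, *Emilin1* and *Fbln2*), 2 rose slightly (*Fbn1* and *Fbln5*), and 2 did not pass the test (*Mfap2* and *Fbln1*). Among all genes tested, 19.8% were lower and 20.4% were higher by the same rule, an adjusted p-value under 0.05 in edgeR's quasi-likelihood test. Of the 7 genes 1, *Fbn2*, was also past a 2-fold change, as were 2.35% of all genes tested downward and 2.86% upward. In 5 of the 7 genes the IL-1β and vehicle samples did not overlap, against 36.8% of all genes tested. The median log2 fold change of the 7 genes was 0.11, compared with -0.0012 over all genes tested.

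**Figure D2:**
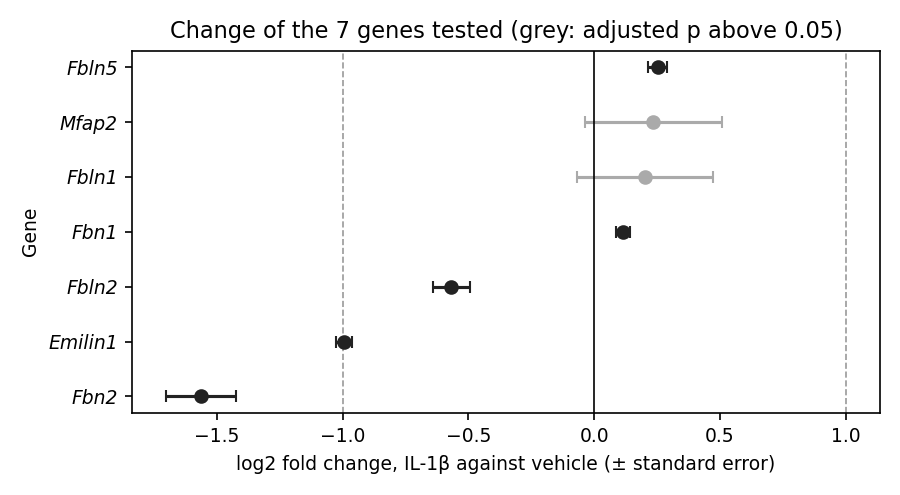
Log2 fold change of the 7 genes that passed the filter, IL-1β against vehicle, with the standard error from edgeR as bars. Dashed lines mark a 2-fold change. *Fbn2* lies beyond the lower line and *Emilin1* on it, at -1.56 and -0.996, while *Fbn1* (0.11) and *Fbln5* (0.25) lie just above 0 and the grey genes, *Mfap2* and *Fbln1*, have wide errors.

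*Emilin1* (ENSMUSG00000029163.9) lies on chromosome 5 from 30913402 to 30921277 (GRCm38) and shares no exon bases with another annotated gene. The 4 vehicle samples had 367, 353, 354 and 372 CPM and the 4 IL-1β samples 175, 183, 184 and 183 CPM. Every IL-1β sample lay below every vehicle sample, with a wide gap between the groups and a narrow spread within them. *Emilin1* fell by 49.8%, and edgeR gave -0.996 on the log2 scale with a standard error of 0.0322 and an adjusted p of 1.59e-20. The change lay on the border of the 2-fold threshold, so it was counted as past 2-fold in some alternatives and not in others, between -1.01 and -0.98 over all of them. Among the genes tested, 2.37% had a lower log2 fold change.

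*Fbn2* (ENSMUSG00000024598.9), on chromosome 18 from 58008623 to 58210487, had 6.58, 6.59, 8.20 and 6.97 CPM in the vehicle samples. With IL-1β it had 2.34, 2.38, 2.44 and 2.34 CPM. The groups were far apart, and vehicle replicate 3 was the highest sample. *Fbn2* fell by 66.2% (log2 fold change -1.56, standard error 0.138, adjusted p = 1.62e-10 from edgeR), resting on 106 to 115 reads per vehicle sample and 26 to 41 reads per IL-1β sample. Only 0.840% of the genes tested had a lower log2 fold change. Of its exon bases 0.976% overlap a gene on the other strand, and its length in the deposited table, 10480 bases, is shorter than the 13215 exon bases of the annotation used here, which bears on its FPKM but not on its change.

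*Fbln2* (ENSMUSG00000064080.12), on chromosome 6 from 91212455 to 91272540, had 26.2, 25.9, 26.6 and 26.8 CPM with vehicle and 15.9, 15.7, 21.1 and 17.5 CPM with IL-1β. IL-1β replicate 3 was nearest to the vehicle samples but remained below all of them. *Fbln2* fell by 32.6% (log2 fold change -0.57, standard error 0.0735, adjusted p = 2.51e-07 from edgeR). Over the alternatives its log2 fold change lay between -0.68 and -0.52.

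*Fbn1* (ENSMUSG00000027204.13), on chromosome 2 from 125300594 to 125507993, had 152, 152, 154 and 159 CPM with vehicle and 165, 166, 166 and 170.1 CPM with IL-1β. The groups did not overlap, and the lowest IL-1β sample was close above the highest vehicle sample. Its rise was 8.26% (log2 fold change 0.11, standard error 0.0289, adjusted p = 0.00196 from edgeR). Of its exon bases 20.1% are shared with *Gm9913* on the opposite strand, and whether the counting used strand is not given in the sources used here. Whether reads over the shared bases were counted for *Fbn1* is thus not known, which bears on its FPKM and on its order beside *Fbln5*. *Gm9913* had 6 to 18 reads per vehicle sample and 8 to 22 per IL-1β sample, against at least 1830 reads of *Fbn1* in each sample.

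*Fbln5* (ENSMUSG00000021186.9), on chromosome 12 from 101746565 to 101819055, had 89.2, 87.0, 85.3 and 91.7 CPM with vehicle. With IL-1β it had 104, 97.9, 109 and 109 CPM, all above the vehicle samples. The rise was 19.1% (log2 fold change 0.25, standard error 0.0387, adjusted p = 4.32e-06 from edgeR).

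*Mfap2* (ENSMUSG00000060572.17; chromosome 4, 141010418 to 141015984) held 17, 26, 8 and 16 reads in the vehicle samples and 12, 15, 24 and 18 reads in the IL-1β samples. Both groups covered almost the same range, and edgeR gave a log2 fold change of 0.23 ± 0.273 (standard error) with an adjusted p of 0.545. *Fbln1* (ENSMUSG00000006369.14; chromosome 15, 85205949 to 85286535) held 36, 16, 18 and 18 reads with vehicle and 21, 31, 19 and 17 reads with IL-1β. Vehicle replicate 1 and IL-1β replicate 2 were the high samples of their groups, and edgeR gave a log2 fold change of 0.20 ± 0.271 (standard error) with an adjusted p of 0.607, which turned to -0.0143 without IL-1β replicate 2.

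*Eln* (ENSMUSG00000029675.12; chromosome 5, 134702593 to 134747323), the gene of tropoelastin, did not pass the filter. It held 5, 12, 6 and 9 reads in the vehicle samples and 3, 0, 4 and 5 reads in the IL-1β samples. The groups met at 5 reads, and without the filter edgeR gave a log2 fold change of -1.20 ± 0.522 (standard error) with an adjusted p of 0.104. *Mfap5* (ENSMUSG00000030116.14; chromosome 6, 122505845 to 122529290), which encodes MAGP-2, held 5, 3, 3 and 0 reads with vehicle and 6, 5, 6 and 4 reads with IL-1β. *Mfap4* (ENSMUSG00000042436.12; chromosome 11, 61485431 to 61488900), which encodes a fibrinogen-related protein bound to elastic fibres, held 2, 4, 0 and 0 reads with vehicle and 3, 4, 7 and 3 reads with IL-1β. These counts are so close to the limit of 3 reads that no fold change is given, and without the filter the adjusted p-values from edgeR were 0.246 for *Mfap5* and 0.119 for *Mfap4*. *Mfap4* shares 4.63% of its exon bases with *Mapk7* on the opposite strand, which held 278 to 538 reads per sample.

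Summed over the 10 genes, the level was 104.9 ± 2.5 FPKM (SD, n = 4) with vehicle and 70.3 ± 1.64 FPKM (SD, n = 4) with IL-1β. By sample the sum was 106, 103, 103 and 108 FPKM with vehicle and 68.6, 69.3, 72.1 and 71.4 FPKM with IL-1β. Without *Emilin1* it was 31.6 ± 0.635 FPKM with vehicle and 33.6 ± 1.20 FPKM with IL-1β, so the lower sum rests on *Emilin1*. The share of *Emilin1* was 52.2 ± 0.892% with IL-1β, that of *Fbln5* 21.6 ± 0.802% and that of *Fbn1* 19.6 ± 0.363%, while *Fbln2* had 3.92 ± 0.475%. With IL-1β, the ranges of *Fbln5* (15.2 ± 0.776 FPKM) and *Fbn1* (13.8 ± 0.184 FPKM) no longer overlapped. *Fbn2*, at 0.227 ± 0.00423 FPKM, lay below *Fbln1* (0.370 ± 0.123 FPKM) there, the reverse of their order with vehicle, and their ranges did not overlap in either group.

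**Figure D3:**
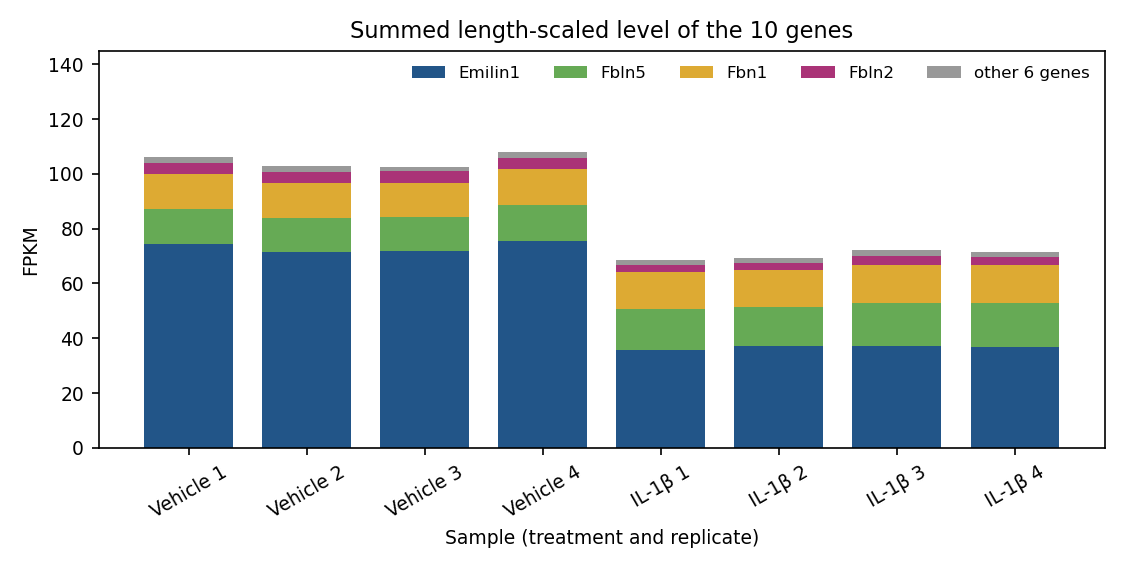
Summed FPKM of the 10 genes in each sample, stacked by gene. The vehicle bars reach 103 to 108 FPKM and the IL-1β bars 68.6 to 72.1 FPKM, and the difference lies in the *Emilin1* segment.

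Ratios within a sample, which do not depend on library scaling, were compared for 4 pairs. *Fbn1* exceeded *Fbn2* by 18.9 times per length with vehicle and by 60.7 times with IL-1β. The log2 ratio of *Fbn2* to *Fbn1* was -4.24 ± 0.145 (SD, n = 4) with vehicle and -5.92 ± 0.0372 with IL-1β, a difference of -1.68 that every IL-1β sample showed. By an exact permutation test, two-sided, p was 0.0286, the smallest that 4 samples against 4 allow, and 0.114 adjusted over the 4 ratios. The log2 ratio of *Fbln2* to *Fbln1* was 3.79 ± 0.487 with vehicle and 2.95 ± 0.661 with IL-1β, and these overlapped (exact permutation p = 0.114, adjusted p = 0.152). Since *Mfap5* and *Eln* had a sample with 0 reads, 0.5 counts were added to each count for the other 2 ratios. *Mfap5* to *Mfap2* differed by 1.13 (exact permutation p = 0.286, adjusted p = 0.286) and *Fbln5* to *Eln* by 1.70 (exact permutation p = 0.0571, adjusted p = 0.114), and the samples of the treatments overlapped in both ratios. The difference was 0.36 for *Mfap5* to *Mfap2* without vehicle replicate 4, and 0.95 for *Fbln5* to *Eln* without IL-1β replicate 2, the samples with 0 reads of *Mfap5* and *Eln*.

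**Figure D4:**
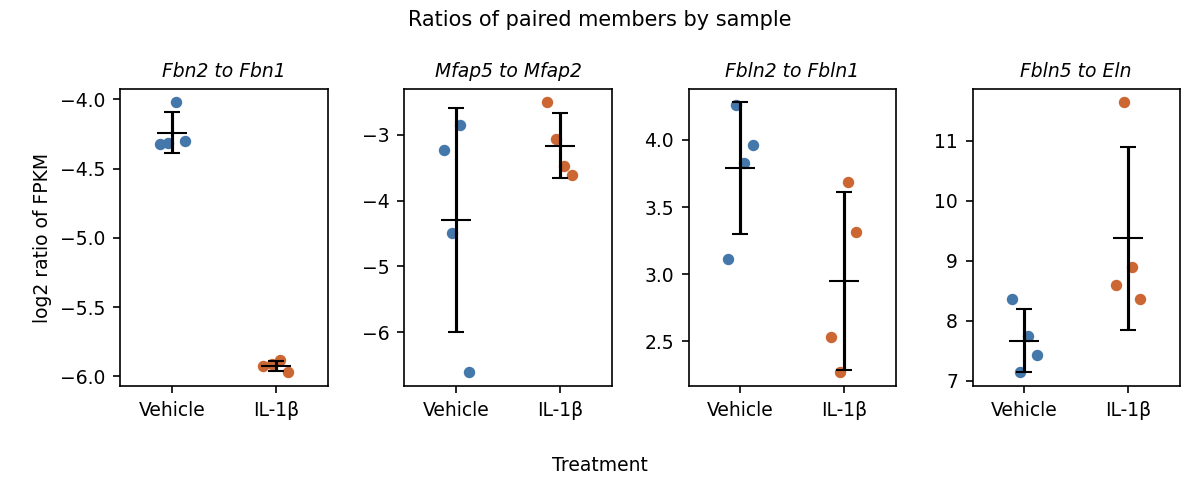
Log2 ratio of the FPKM of 2 genes in each sample, with the mean and SD of the 4 samples per treatment in black, and with 0.5 counts added for *Mfap5* to *Mfap2* and *Fbln5* to *Eln*. The ratio of *Fbn2* to *Fbn1* separates the treatments (-4.24 against -5.92), while the wide bars of the *Mfap5* and *Eln* ratios come with few reads.

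By pattern over the 8 samples, the 5 genes most like *Emilin1*, the most abundant member that passed the test, were *Pgm5*, *Hapln1*, *Comp*, *Acan* and *Fgfr3*. Pearson's r of log2(CPM + 1) was 0.9991 to 0.9996 over the 8 samples, which fall into 2 groups, so r mostly reflects the difference between the treatments. Their log2 fold changes ranged from -3.80 for *Pgm5* to -1.08 for *Hapln1*.

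The wider elastic fibre network was described by 6 further lists of 68 genes, of which 53 passed the filter. Of these 53 genes, 17 were higher (32.1%) and 26 were lower (49.1%) after IL-1β, read against 20.4% and 19.8% of all genes tested.

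**Figure D5:**
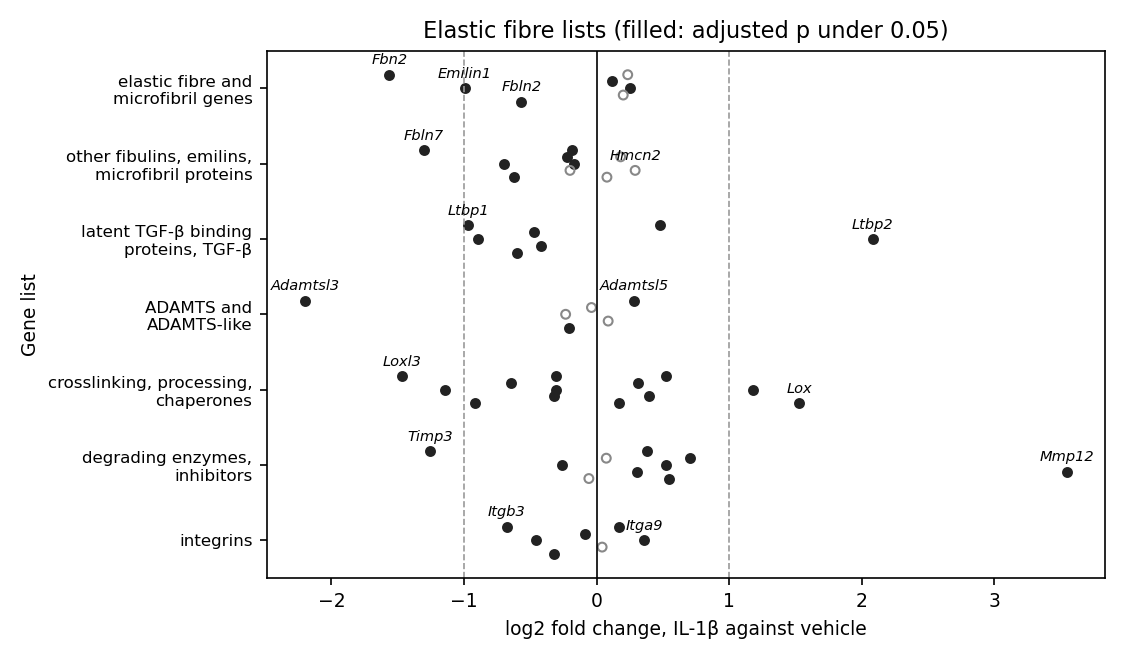
Log2 fold change, IL-1β against vehicle, of the genes that passed the filter in the list of 10 genes (top) and the 6 further lists. Filled points have an adjusted p-value under 0.05 and dashed lines mark a 2-fold change. The highest and lowest gene of each further list is named, such as *Ltbp2* at 2.08 and *Adamtsl3* at -2.20. The highest point, *Mmp12*, rests on 2 to 6 reads per vehicle sample.

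Of the 13 genes listed as other fibulins, EMILINs and microfibril proteins, 10 passed the filter, 6 fell and 0 rose, with a median log2 fold change of -0.19. *Mfap1a*, *Mfap1b*, *Mfap3* and *Mfap3l* were listed by their symbols, and whether their products belong to microfibrils was not examined. *Mfap1a* (-0.17), *Mfap1b* (-0.22) and *Mfap3l* are among the falls. The number that fell was 5 with DESeq2 and without IL-1β replicate 3 or 4 or vehicle replicate 4. *Fbln7*, which encodes fibulin-7, fell from 14.9 ± 1.34 to 6.08 ± 0.682 CPM (SD, n = 4; log2 fold change -1.30, adjusted p = 1.78e-11 from edgeR). *Hmcn1*, which encodes a very large fibulin, changed by -0.70 and *Mfap3l* by -0.63 on the log2 scale. *Emilin2* and *Emilin3*, the close relatives of *Emilin1*, did not pass the filter and stayed at or under 1.10 CPM.

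All 7 latent TGF-β binding proteins and TGF-β ligands passed the filter and the test, 2 upward and 5 downward. *Ltbp2*, whose product binds fibrillin-1 but not latent TGF-β, rose from 38.9 ± 0.719 to 165 ± 5.63 CPM (log2 fold change 2.08, adjusted p = 1.29e-26 from edgeR). *Ltbp1*, the classical carrier of latent TGF-β, fell from 389 ± 3.57 to 199 ± 8.13 CPM (log2 fold change -0.97). Of the ligands, *Tgfb1* rose by 0.47 on the log2 scale, while *Tgfb2* and *Tgfb3* changed by -0.89 and -0.60.

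Among 10 ADAMTS and ADAMTS-like genes of proteins known from fibrillin microfibrils, 6 passed the filter, 1 rose and 2 fell. *Adamtsl3* fell from 35.2 ± 2.43 to 7.68 ± 0.884 CPM (log2 fold change -2.20, adjusted p = 1.71e-19 from edgeR), while *Adamts10*, which encodes a protease that binds fibrillin-1, changed by -0.21. *Adamtsl5* was higher by 0.28 (adjusted p = 0.0405 from edgeR), a call lost with DESeq2, without the filter, with the replicate block and without IL-1β replicate 1 or 4 or vehicle replicate 1, 3 or 4. The number that fell was 1 with DESeq2 and without IL-1β replicate 1 or 4 or vehicle replicate 1 or 3.

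Of the 13 genes for crosslinking, processing and chaperoning, all 13 passed the test, 6 upward and 7 downward. The number that rose was 5 with DESeq2 and without IL-1β replicate 3 or vehicle replicate 2 or 4. The lysyl oxidases, which start the crosslinks of elastin and collagen, moved in opposite directions. *Lox* rose from 399 ± 7.07 to 1149 ± 22.2 CPM (log2 fold change 1.53, adjusted p = 5.61e-26 from edgeR), while *Loxl3*, *Loxl2* and *Loxl4* fell by 1.46, 1.14 and 0.92 on the log2 scale. *Vcan*, which encodes versican, a proteoglycan bound to fibrillin, rose by 1.18. *Pcsk5*, which encodes a proprotein convertase, rose by 0.52 (adjusted p = 0.0221 from edgeR), from 2.36 ± 0.624 to 3.39 ± 0.260 CPM.

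Of 15 elastin-degrading enzymes and inhibitors, 10 passed the filter, 6 rose and 2 fell. *Mmp12*, the macrophage elastase, counted among the 6 that rose, held 4, 5, 2 and 6 reads with vehicle and 36, 37, 61 and 45 reads with IL-1β. It passed the filter only through its IL-1β samples. Its vehicle reads lie near the limit of 3 reads, so the size of its rise is uncertain. *Cd68*, the only leukocyte marker past the filter, was also higher with IL-1β, at 15.0 ± 1.56 against 9.48 ± 0.730 CPM. *Laptm5*, another leukocyte marker, was lower with IL-1β. The part of leukocytes in the rise of *Mmp12* was not tested. *Mmp2* and *Timp1* rose by 0.71 and 0.54 on the log2 scale. *Timp3*, a metalloproteinase inhibitor bound to the matrix, fell from 6092 ± 218 to 2548 ± 111 CPM (log2 fold change -1.26), and *Cst3*, which encodes the cathepsin inhibitor cystatin C, changed by -0.26. Neutrophil elastase (*Elane*) and *Mmp7* had 0 reads in every sample.

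Among the 10 integrin chains of receptors for fibrillin, fibulin-5, MAGP-2 or EMILIN-1, 7 passed the filter, 2 rose and 4 fell. The rises were small, 0.36 for *Itga9*, a chain of a receptor for EMILIN-1, and 0.17 for *Itgav*. *Itga5* and *Itgb5* changed by -0.46 and -0.32 on the log2 scale. *Itgb3* changed by -0.68 (adjusted p = 0.0283 from edgeR), near the filter. It held 21, 32, 28 and 29 reads with vehicle and 13, 19, 14 and 14 reads with IL-1β. IL-1β replicates 3 and 4 had 0.832 and 0.993 CPM, so *Itgb3* passed the filter only with its vehicle samples, and the size of its fall is uncertain. The number that fell was 2 without IL-1β replicate 3 or 4 or vehicle replicate 2 or 4.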

How the data were processed

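The authors trimmed reads with cutadapt, aligned them to mm10 (GENCODE vM20) with STAR and deposited featureCounts counts per gene symbol as whole numbers, beside gene lengths in bases (unit: other). Whether the deposited counts precede or follow the batch correction the methods name is not stated, and the STAR version differs between the methods and the submitters' processing notes. Total counts were 10992355 to 17456063 per sample, and limits of 3 reads cover counting error only.

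Counts were TMM-normalized and tested with edgeR 4.0.16 (quasi-likelihood, treatment only; R 4.3.3) over the 14404 genes that exceeded 1 CPM in 4 or more samples, and p-values were Benjamini-Hochberg adjusted over all of these. The code was tested on simulated data. FPKM used the listed lengths. Positions, exon overlaps and transcript lengths came from GENCODE vM21 (GRCm38), in which 9 of the 10 genes had the listed length. Ratios were tested with scipy 1.17.1. Amino acid features were planned but not computed. All 8 columns were used.

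The members and lists were chosen with earlier results of these data known. Named were all 10 members, up to 3 rises and 3 falls of each further list, and the 5 genes most like the most abundant member that passed the test. Alternatives were DESeq2 1.42.0, other scalings and filters, the replicate block, 1 RUVs factor and each sample left out.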

Additional observations from a re-analysis of the deposited data

Results flagged for a closer look

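Among 26 groups of 4 values (the 7 members tested, the total counts, the summed FPKM and the 4 ratios, each with IL-1β and with vehicle), 3 had 1 sample whose gap to the rest, relative to the range of the group, passed Dixon's 95% limit for 4 values. Chance gives about 1 in 20, or 1.3 groups. IL-1β replicate 1 was low for *Emilin1*, at 175.4 CPM where the remaining 3 had 182.6 to 183.8 CPM, and without that replicate its log2 fold change was -0.98. The log2 ratio of *Fbn2* to *Fbn1* was -4.02 in vehicle replicate 3, against -4.32 to -4.30 in the other vehicle samples. The log2 ratio of *Fbln5* to *Eln* was 11.6 in IL-1β replicate 2, which held 0 reads of *Eln*, against 8.36 to 8.90 in the other IL-1β samples.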

How the results depend on the processing

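The 5 members that passed the test kept their direction and an adjusted p-value under 0.05 under all 15 alternatives, and *Mfap2* and *Fbln1* passed under none of the 14 in which they were tested. The log2 fold change of *Fbln1* was -0.0143 without IL-1β replicate 2 and 0.49 without vehicle replicate 1, the extremes of its range. The number of members lower past a 2-fold change was 2 in place of 1 with the total library size and with no filter on low counts, and 1 to 2 with single samples left out (2 without IL-1β replicate 2 or 3 and without vehicle replicate 2 or 3), since *Emilin1* lies on that border. With no filter, 1206 genes were past a 2-fold change in place of 751. With the length of the longest coding transcript, *Emilin1* made up 72.4% of the summed FPKM with vehicle and 55.4% with IL-1β. The replicate numbers are shared by the groups, but deviations from the group means had an r of -0.0699 to 0.0416 between samples of the same number, and 1 of 8 samples correlated best with its own number. With the replicate block, 5643 genes passed in place of 5796, 5586 were shared, and the members' calls were the same. The ratio of *Fbn2* to *Fbn1* differed by -1.68 within replicate pairs (exact sign-flip test, adjusted p = 0.167), where the smallest unadjusted p that 4 pairs allow is 0.125. Depth, at most 12 reads per sample, limits what can be said of *Eln*, *Mfap4* and *Mfap5*.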
